A study of Mus musculus with 17 samples.

Results

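Cluster 7 was the endothelial cluster among the 9 cell clusters that the authors obtained from dissociated mouse brain by droplet-based single-cell RNA sequencing (scRNA-seq). Its members here are the gene means that the deposited table lists for this cluster, 1 value per gene in each of 2 libraries, out of the 17 libraries of the series. Of 26646 genes listed once in the table, 21681 had a mean above 0 in cluster 7. Both libraries came from the brain of adult female wild-type ICR mice that received a unilateral injection of 6-hydroxydopamine (6-OHDA), a toxin that destroys dopaminergic neurons, into the substantia nigra at 8 weeks of age. In the 6-OHDA+NDST3 group, an adeno-associated virus carrying human NDST3 under the CMV promoter was injected at the same site 5 days later, whereas the 6-OHDA group received saline. The virus and the NDST3 it carries therefore cannot be told apart here, and "with NDST3" below means in the 6-OHDA+NDST3 library. NDST3 is an enzyme of the heparan sulfate pathway, and the CMV promoter does not restrict it to one cell type. The table lists mouse genes, so the human transgene itself was not measured in cluster 7. A sham scRNA-seq library is also labelled in the series, but was not analysed here, so every difference given below is between 2 lesioned groups.

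Each group had 1 library, so no difference has a replicate check and no test was made. The values are means over the cells of a cluster of the natural log of 1 plus the UMI count (unique molecular identifiers) scaled to 10000 per cell, and are given below as levels in ln units. Differences are 6-OHDA+NDST3 minus 6-OHDA on the same scale. The number of cells behind a mean and their depth were not analysed here. Back-transformed means of cluster 7 summed to 6950 in the 6-OHDA library and 7026 in the 6-OHDA+NDST3 library, which is 69.5% and 70.3% of that scale. Their smallest values above 0 were 9.04e-05 and 0.00012.

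Brain endothelial cells line the vessels of the brain and form the blood-brain barrier. Claudin and other junction proteins seal the gaps between them, solute carriers bring glucose, amino acids and hormones across, efflux pumps return drugs to the blood, and vesicle traffic through the cell is kept low by the lipid transporter Mfsd2a. Beta-catenin signalling, which astrocyte and neural Wnt ligands and their receptors start, keeps these properties. Along the vessel tree the cells differ from arterial through capillary to venous, and the venous cells are the usual site of leukocyte entry.

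The 6 markers of brain endothelium were all highest in cluster 7 in both libraries. Cldn5, the main claudin of the barrier, had a level of 3.66 in the 6-OHDA library and 3.76 in the 6-OHDA+NDST3 library, against 0.23 as the mean of both libraries in cluster 5, the next highest. Flt1, a receptor of VEGF, had 3.92 and 3.91, with cluster 3 next at 0.46. Ly6c1, a surface antigen of brain endothelium, had 3.45 and 3.50, with cluster 5 next at 0.25. These markers stood above every other cluster by more than 3 ln units. The organic anion transporters Slco1a4 and Slco1c1 had 2.81 and 2.87, and 2.76 and 2.70, with cluster 2 next at 0.13 and 0.27. Pecam1, the adhesion molecule CD31 that leukocytes also carry, had 1.97 and 2.09, and cluster 9 was next at 0.81. The lowest margin among the markers was thus that of Pecam1, which clusters 1, 4, 8 and 9 also expressed at 0.73, 0.46, 0.53 and 0.81.

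**Figure D1:**
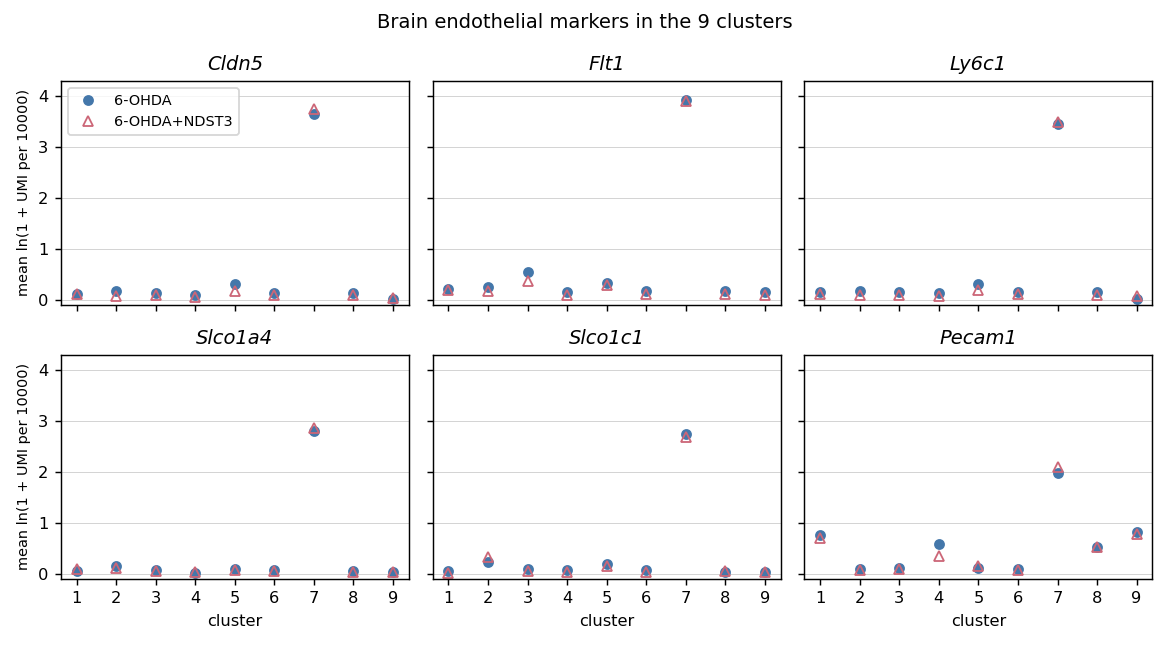
Mean level, in ln(1 + UMI per 10000), of the 6 brain endothelial markers in each of the 9 clusters (horizontal axis) for the 6-OHDA library (filled circles) and the 6-OHDA+NDST3 library (open triangles), with 1 library per group and no error bars. In each panel the cluster 7 points lie above all others, and Pecam1 has the highest levels outside cluster 7, up to 0.81 in cluster 9.

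All 18 pan-endothelial genes, among them the junction cadherin Cdh5 (1.29 and 1.36), the VEGF receptor Kdr (1.49 and 1.41) and the angiopoietin receptor Tek (1.75 and 1.66), were likewise highest in cluster 7. With the markers this makes 24 of 24, against a background of 24.7% of the genes detected in cluster 7 (a mean above 0.1 in either library) that were highest there of the 9 clusters. The cells were clustered on their expression, so these levels describe the cluster and do not test its name. By a margin of at least 0.5 ln units over every other cluster, 244 genes were highest in cluster 7, and 85 of them by at least 1. Across all genes the means of cluster 7 were closest to those of cluster 5 (Pearson's r = 0.78) and cluster 2 (r = 0.76), and r was 0.66 to 0.74 with the other 6 clusters. These correlations are descriptions over genes measured in the same libraries.

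The 20 genes with the largest margin were, in order, Cldn5, Flt1, Ly6c1, Bsg, Itm2a, Slco1a4, Spock2, Slco1c1, Adgrl4, Ptprg, Ptprb, Egfl7, Mecom, Kitl, Igf1r, Adgrf5, Emcn, Pltp, Slc2a1 and Sptbn1. Among them Bsg (basigin) had 4.56 and 4.45, and cluster 2 was next at 1.76. Slc2a1, the glucose transporter of the barrier, had 2.58 and 2.75 with cluster 3 next at 0.86. Igf1r, the receptor of insulin-like growth factor, had 2.92 and 3.11 with cluster 5 next at 1.10. Egfl7, a secreted protein of endothelium, had 2.28 and 2.32, and all other clusters lay at or below 0.10. None of the 20 genes was on the marker lists of the other cell types.

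Promoters of 3 leading genes are shown because these genes define the cluster and because they differ in short motifs read by factors of endothelium. The sequences are RefSeq windows on GRCm38.p6 of 300 bases, from 250 before to 50 after the start of the gene, written 5′ to 3′ on the strand of the gene. Capitals mark matches on either strand to 4 motifs. AGGAAG is a core read by ETS factors such as Erg, as are its neighbouring forms GGAAGT and, with another flank, CAGGAA. The letters ACAAAG are a core read by LEF and TCF factors of the Wnt pathway. The ETS cores can overlap each other.
Cldn5, chr16:18776597-18776896, plus strand: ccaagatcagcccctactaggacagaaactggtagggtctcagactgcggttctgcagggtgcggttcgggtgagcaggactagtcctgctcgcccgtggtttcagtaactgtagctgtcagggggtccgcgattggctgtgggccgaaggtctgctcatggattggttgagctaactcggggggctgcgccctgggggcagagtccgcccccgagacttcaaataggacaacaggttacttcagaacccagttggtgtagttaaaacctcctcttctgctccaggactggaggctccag
Flt1, chr5:147725962-147726261, minus strand: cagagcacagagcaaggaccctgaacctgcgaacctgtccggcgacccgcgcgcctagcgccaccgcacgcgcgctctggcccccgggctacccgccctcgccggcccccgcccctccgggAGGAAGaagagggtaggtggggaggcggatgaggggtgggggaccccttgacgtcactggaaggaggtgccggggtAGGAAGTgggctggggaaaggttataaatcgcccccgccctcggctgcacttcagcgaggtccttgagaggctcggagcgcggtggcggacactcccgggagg
Slco1c1, chr6:141524104-141524403, plus strand: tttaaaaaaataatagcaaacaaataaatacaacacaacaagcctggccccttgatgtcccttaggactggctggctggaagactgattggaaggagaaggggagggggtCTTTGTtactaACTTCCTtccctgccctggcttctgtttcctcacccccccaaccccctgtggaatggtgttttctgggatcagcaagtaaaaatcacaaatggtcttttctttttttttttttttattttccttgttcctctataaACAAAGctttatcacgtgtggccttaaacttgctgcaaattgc

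The window of Cldn5 held none of the 4 motifs. That of Flt1 held AGGAAG at positions 122 and 198, counted from the first base of the window, and GGAAGT at 199, overlapping the latter. That of Slco1c1 held ACAAAG at 258 and, on the other strand, at 111, with GGAAGT at 122 and AGGAAG at 123, also on the other strand and overlapping. Of the 20 leading genes 18 had a window in the table, and 10 of these held AGGAAG in at least 1 window, 6 held GGAAGT, 6 held CAGGAA and 5 held ACAAAG. Among all 27025 genes with a window, the shares were 38.4%, 26.5%, 33.4% and 21.0%. A match is a description of the letters and not of binding. The factors themselves were present, with Erg at 1.15 in both libraries, Fli1 at 1.54 and 1.50 and Lef1 at 1.98 and 1.96.

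Markers of other cell types were low in cluster 7, with exceptions from myeloid cells and blood. The 8 smooth muscle markers summed to 0.42 and 0.37, of which only Mylk (0.18 and 0.22) was detected, and the defining Acta2 and Myh11, both highest in cluster 5, had 0.08 and 0.05, and 0.03 and 0.02. Pericyte markers summed to 0.81 and 0.63 over 11 genes, with Pdgfrb at 0.05 and 0.04 and Rgs5 at 0.29 and 0.23. The 8 oligodendrocyte markers summed to 0.12 and 0.09, and the 8 astrocyte markers to 0.52 and 0.52, with Aqp4 at 0.0051 and 0.0055. Of 10 neuron markers only Stmn2, which arterial endothelium also expresses, was detected (0.42 and 0.39). The 6 lymphatic endothelial markers summed to 0.39 and 0.40, nearly all of it from Flt4 (0.33 and 0.36), the only one detected, which was highest in cluster 7. The defining Prox1 and Lyve1 were at 0.018 and 0.011, and 0.0011 and 0.0022.

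Myeloid, red cell and lymphocyte genes differed between the libraries within cluster 7. The 8 microglia markers summed to 1.60 and 1.14, with Cx3cr1 at 0.23 and 0.16 and P2ry12 at 0.12 and 0.07. The 5 erythrocyte genes summed to 1.92 and 1.32. T cell markers went from a sum of 0.06 to 0.29 over 10 genes, and B cell markers from 0.08 to 0.30 over 8, of which Igkc (0.02 and 0.14) was the only one detected. Outside cluster 7, the microglia sum was lower with NDST3 in 7 of the other 8 clusters and the T cell and erythrocyte sums moved the same way as in cluster 7 in all 8. These shifts are common to the libraries, and their part in the differences below was not tested.

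Of 7656 genes detected in cluster 7, the difference between the libraries reached 0.25 ln units in 16. Of these, 7 (0.0914% of the genes compared) were higher in the 6-OHDA+NDST3 library, namely Cd74, Zbtb16, Tbc1d4, Serinc3, Cdkn1a, Fosb and Tmem252. The 9 lower genes (0.118%) were Cst3, Xist, Cxcl12, Lyz2, Spp1, Apoe, Hspa1a, Ctsd and Tyrobp. The median difference was 0.0066, the SD over genes 0.040, and 90% of the genes lay between -0.045 and 0.067. This SD was the smallest of the 9 clusters, in which it ranged up to 0.13 (cluster 9), and the other clusters had 25 to 362 genes past the same size. In cluster 9, where 362 genes passed, the 6-OHDA column listed 11253 genes above 0 with a smallest value of 0.0087, against 20442 genes and 9.04e-05 in cluster 7. Clusters 3 and 6 had smaller least values in the 6-OHDA column than cluster 7 (4.87e-05 and 7.16e-05) and larger SDs (0.074 and 0.051). What sets the spread was not tested. Among the 152 genes with a level above 2 in cluster 7, 90% of the differences lay between -0.12 and 0.15, and 2 genes, Cst3 and Apoe, passed the size rule.

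**Figure D2:**
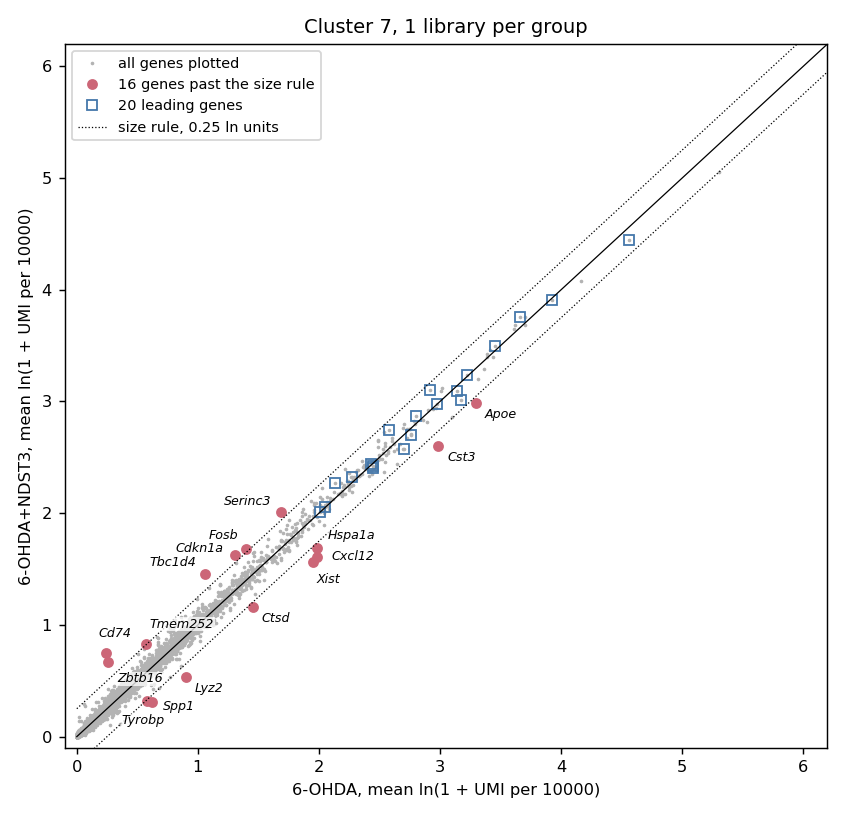
Level of each gene in cluster 7 in the 6-OHDA library (horizontal axis) and the 6-OHDA+NDST3 library (vertical axis), both in ln(1 + UMI per 10000). Red circles are the 16 genes past the size rule of 0.25 ln units (dotted lines), blue squares the 20 leading genes, all of which lie between the dotted lines.

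All 9 lower genes were also lower in at least 7 of the other 8 clusters, and 8 of the 9, all but Cxcl12, passed the size rule in at least 1 other cluster. No share over all detected genes is given beside these counts, so they describe these genes only. Cst3, Lyz2, Spp1, Apoe, Ctsd and Tyrobp are expressed by myeloid cells and were highest in cluster 1, 3 or 6. The lysozyme gene Lyz2 had 0.90 and 0.53 in cluster 7, with a difference of -0.37 and a median of -0.33 over the other clusters. Spp1 (osteopontin), with 0.62 and 0.31, differed by -0.31, against -0.85 in cluster 3. Apoe (3.30 and 2.99), Cst3 (2.99 and 2.60), Ctsd (1.45 and 1.16) and Tyrobp (0.58 and 0.32) were all far higher in clusters 1, 3 or 6, up to 6.33 for Apoe in cluster 3. The microglia and red cell sums given above shifted in the same direction. Xist, the noncoding RNA of the inactive X chromosome, had 1.95 and 1.57, and was lower by at least 0.25 in 3 other clusters. Hspa1a, a chaperone induced by heat and by tissue dissociation, had 1.99 and 1.69, and its difference of -0.30 compares with -0.54 in cluster 6. Just short of the size rule came Malat1 (-0.249), Ttr (-0.25), a choroid plexus gene, and Hba-a1 (-0.24), a haemoglobin chain, each lower in all 9 clusters.

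Cxcl12 was the only lower gene that passed the size rule in no other cluster, although it was lower in 7 of the other 8. It encodes a chemokine that brain endothelium displays and that holds CXCR4-bearing leukocytes at the vessel. Its level was 1.98 in the 6-OHDA library and 1.61 in the 6-OHDA+NDST3 library, a difference of -0.37. The next level was 0.33 in cluster 2, and in the other clusters the differences lay between -0.13 (cluster 5) and 0.004. Cluster 5 had a level no higher than 0.33, so its difference of -0.13 was large beside its level. A gene near 0 can differ little on this scale, and in 6 of the other 8 clusters Cxcl12 was at or below 0.041. Of its receptors in cluster 7, the scavenging receptor Ackr3 had 0.58 and 0.61 and Cxcr4 0.03 and 0.04.

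Cd74, the invariant chain of MHC class II, had the largest difference in either direction, with levels of 0.24 and 0.75. It was higher in all 9 clusters, by 2.04 in cluster 3 and 1.35 in cluster 6, and its level was 4.76 in cluster 9. H2-Ab1 (0.06 and 0.29), H2-Aa (0.07 and 0.27) and H2-Eb1 (0.02 and 0.17) followed it. The median over the 4 detected class II genes was 0.22. All of them but Cd74 passed the floor of 0.1 only in the 6-OHDA+NDST3 library, so the filter itself fixed their direction. Without the filter, the 7 listed class II genes summed to 0.48 and 1.61. The class II transactivator Ciita was at 0.0027 and 0.0072. B and T cell markers moved in the same direction in cluster 7, as given above, and their part in the class II difference was not tested.

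The other 6 higher genes were also higher in 2 to 6 of the other 8 clusters, again without a share over all detected genes to compare. Tbc1d4, a regulator of glucose transporter traffic downstream of insulin and Akt, had 1.06 and 1.46, a difference of 0.40, and was lower with NDST3 in 5 of the other 8 clusters, although cluster 8 also had 0.31. Zbtb16 (PLZF), a transcription factor induced by glucocorticoids, had 0.26 and 0.67. It was higher in 6 of the other 8 clusters as well, by up to 0.21 in cluster 2, with differences of -0.35 in cluster 4 and -0.29 in cluster 8. Cdkn1a, the cell cycle inhibitor p21, had 1.30 and 1.62, with differences from -0.26 to 0.14 elsewhere. Fosb, an immediate early transcription factor, had 1.40 and 1.68, with differences from -0.37 to 0.13 elsewhere. Tmem252 had 0.57 and 0.83 here and a next level of 0.038. Serinc3, a membrane protein, had 1.68 and 2.01 and was higher in 5 of the other clusters.

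**Figure D3:**
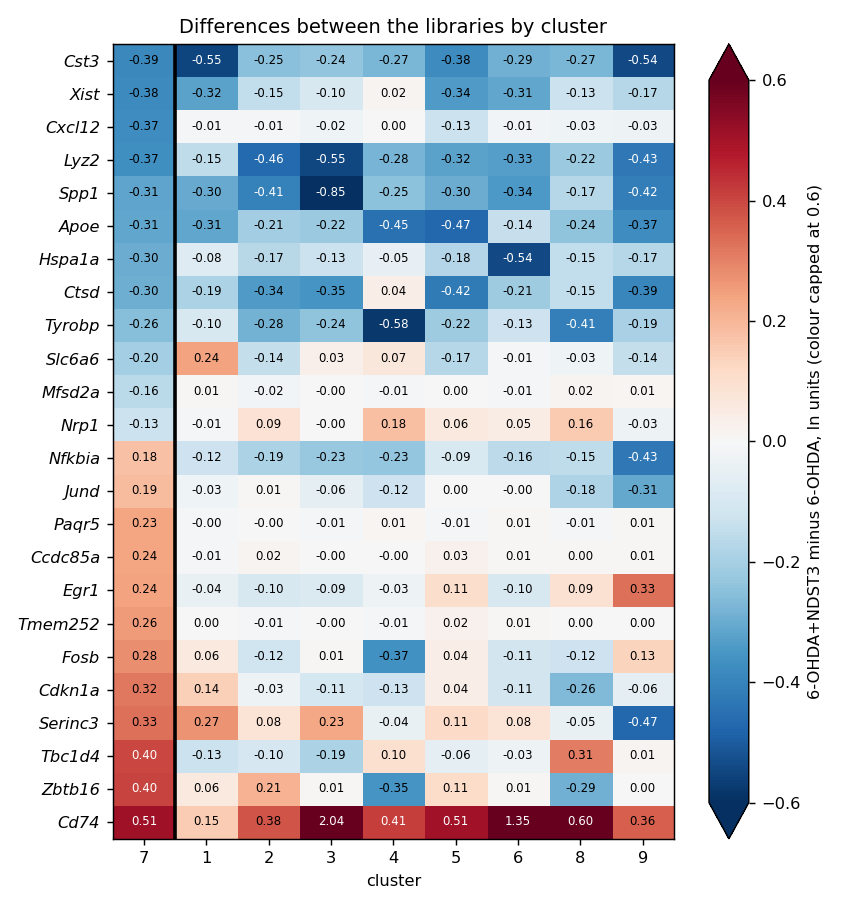
Difference between the libraries (6-OHDA+NDST3 minus 6-OHDA, ln units, printed in each cell and coloured, with colours capped at 0.6 on either side) for the 16 genes past the size rule in cluster 7 and 8 further genes named in the text. Cluster 7 is the first column. Cst3, Lyz2, Spp1, Apoe and Tyrobp are lower and Cd74 higher in every column, whereas Cxcl12, Tmem252 and Paqr5 are near 0 in most columns other than cluster 7. Their levels in those clusters are low, which leaves little room for a difference on this scale.

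Ranked by the distance from the median difference of the other 8 clusters, Tbc1d4, Cdkn1a, Zbtb16, Nfkbia, Fosb, Egr1, Tmem252, Serinc3, Paqr5 and Jund were farthest above. Nfkbia, the inhibitor of NF-kappaB that NF-kappaB itself induces, had 2.22 and 2.39, a difference of 0.18, with differences of -0.43 to -0.092 in the other 8 clusters. Paqr5, a membrane progesterone receptor, had 1.09 and 1.33, against differences from -0.0094 to 0.0096 in the clusters where its level did not exceed 0.21. Like Cxcl12, Tmem252 and Paqr5 were low elsewhere, where a gene can differ little, and this ranking does not allow for that. Farthest below were Cxcl12, Cd86, Ccl4, Xist, C1qa, Adam10, Slc6a6, Nrp1, Pde4d and Arid5b. Of these, Cd86 and Ccl4 are myeloid genes at 0.18 and 0.15, and 0.83 and 0.70, in cluster 7, whose place in this order comes from higher values with NDST3 elsewhere (medians of 0.27 and 0.11). The taurine transporter Slc6a6 (2.65 and 2.44) and the VEGF co-receptor Nrp1 (1.26 and 1.13) were endothelial, with margins of 1.37 and 0.74.

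The genes of the barrier itself differed little. Of 15 tight junction genes 11 were detected, none passed the size rule, and 8 had a difference above 0, against 60.2% of all genes detected in cluster 7. Besides Cldn5 they included Ocln (occludin, 1.19 and 1.26), Tjp1 (ZO-1, 2.28 and 2.29) and Esam (1.84 and 1.94), and the lowest was the scaffold Mpp7 (0.33 and 0.23). The 10 adherens junction genes had a median difference of 0.033, from -0.041 (Ptprb) to 0.12 (Pecam1). For comparison the median over all detected genes was 0.0066.

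Of 23 solute carriers 21 were detected and 19 were highest in cluster 7. Their median difference was -0.0025, with 10 above and 11 below 0, against 39.8% of all detected genes below 0. The largest were Slc2a1 at 0.17 and Slc6a6 at -0.20. The carrier of large neutral amino acids, Slc7a5 with its partner Slc3a2, had 1.52 and 1.61, and 1.65 and 1.70. Of 8 efflux pumps 7 were detected, led by Abcb1a (P-glycoprotein, 2.19 and 2.15) and Abcg2 (2.02 and 2.13), with a median difference of -0.037.

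Among receptors and regulators of transcytosis, 12 of 15 were detected with a median difference of -0.014. Mfsd2a, which restrains vesicle traffic, had 1.01 and 0.85, and the transferrin receptor Tfrc had 1.19 and 1.07. The caveolin gene Cav1 had 0.93 and 0.83, and Cavin2, a coat protein of caveolae, 1.21 and 1.30. Igf1r had the highest difference of this list, 0.19. Plvap, the diaphragm protein of leaky vessels, was at 0.03 and 0.04.

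All 19 genes of the Wnt and beta-catenin pathway were detected, and their median difference was -0.0021. The receptor Fzd4 had 0.50 and 0.62, the largest difference in the list, and Fzd6 had 0.87 and 0.82, the lowest. The pathway's targets Axin2 (0.34 and 0.33), Apcdd1 (1.40 and 1.35) and Notum (0.33 and 0.28) had differences between -0.051 and -0.01, and the barrier factors Sox17 and Foxq1 by less than 0.01. Of 25 transcription factors of endothelium 24 were detected, from Ebf1 (2.55 and 2.45) to Mecom (2.13 and 2.27), with a median of 0.014.

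Of 14 receptors and ligands of VEGF and angiopoietin 10 were detected, 7 of them with a difference below 0, against 39.8% of all detected genes, and the median was -0.034. Nrp1 had the lowest difference (-0.13), followed by Tek (-0.095) and Kdr (-0.081). Flt1, the decoy receptor, differed by -0.013, and Flt4 had the highest difference (0.33 and 0.36). The ligands were hardly expressed in these cells, with Vegfa at 0.03 and 0.02 and Angpt2 at 0.05 and 0.07. Notch pathway genes (9 of 12 detected, median 0.0059) and TGF-beta and BMP pathway genes (13 of 15, median -0.0095) had their largest differences in Hes1 (1.18 and 1.28) and Smad7 (0.88 and 0.82). Among guidance genes, all 13 detected with a median of 0.007, Sema7a had the highest difference (0.80 and 0.92) and Epha4 the lowest (0.78 and 0.69).

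**Figure D4:**
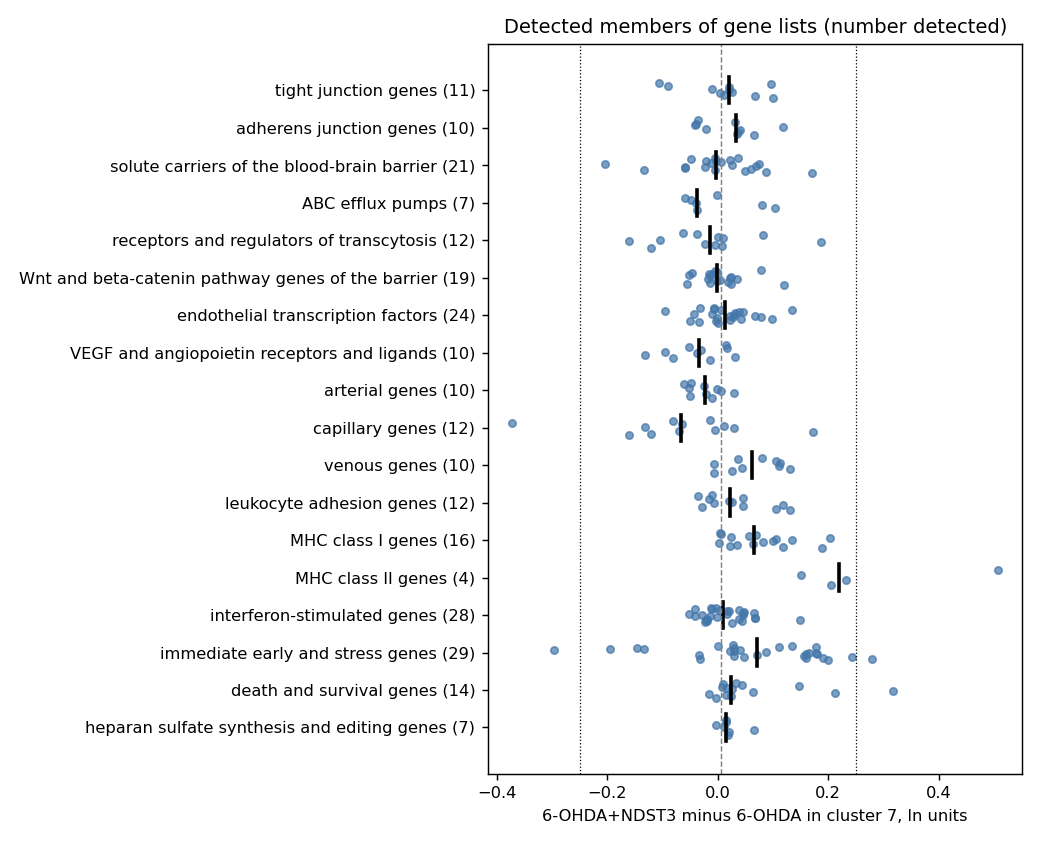
Difference between the libraries in cluster 7 (horizontal axis, ln units) for the detected members of 18 gene lists, 1 point per gene, with the number detected in parentheses. Short bars are list medians, the dashed line the median of all detected genes (0.0066) and dotted lines the size rule. MHC class II and venous genes lie mostly right of the dashed line and capillary genes mostly left of it.

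Genes that mark the arterial, capillary and venous parts of the vessel tree had medians of different sign in cluster 7. Of 12 capillary genes, all detected, 9 were lower in the 6-OHDA+NDST3 library, against 39.8% of all detected genes, with a median of -0.067. The median of this list was also below 0 in 7 of the other 8 clusters, with -0.069 over 7 detected genes in cluster 5 and -0.12 over 4 in cluster 9, and 0.032 in cluster 8. Besides Cxcl12 and Mfsd2a these included Spock2, an extracellular proteoglycan (2.70 and 2.57), Tfrc, Kdr and the carbonic anhydrase Car4 (1.55 and 1.48), while Rgcc (1.18 and 1.36) was higher. Of 10 detected arterial genes 8 were lower, against 39.8% of all detected genes. Their median was -0.022, against -0.064 over 5 genes in cluster 5 and 0.023 over 5 in cluster 2. Alpl, alkaline phosphatase (0.44 and 0.38), had the lowest difference. The ephrin Efnb2 had 0.38 and 0.41.

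Of 10 detected venous genes 8 were higher with NDST3, against 60.2% of all detected genes, with a median of 0.062. Over the 2 to 6 genes detected in each other cluster the median ranged from -0.24 (cluster 4) to 0.041 (cluster 2). The leukocyte adhesion molecules Vcam1 (0.28 and 0.41) and Icam1 (1.19 and 1.29), the interleukin 1 receptor Il1r1 (0.40 and 0.51) and Vwf, von Willebrand factor (0.59 and 0.70), had the highest differences, from 0.11 to 0.13. Venous identity factor Nr2f2 (0.36 and 0.35) and the receptor Ephb4 (0.30 and 0.29) did not follow them. No single arterial or venous gene reached the size rule, and Cxcl12 was the only capillary gene that did. A mean over the cells of a cluster cannot tell a different share of capillary and venous cells from a different level per cell.

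**Figure D5:**
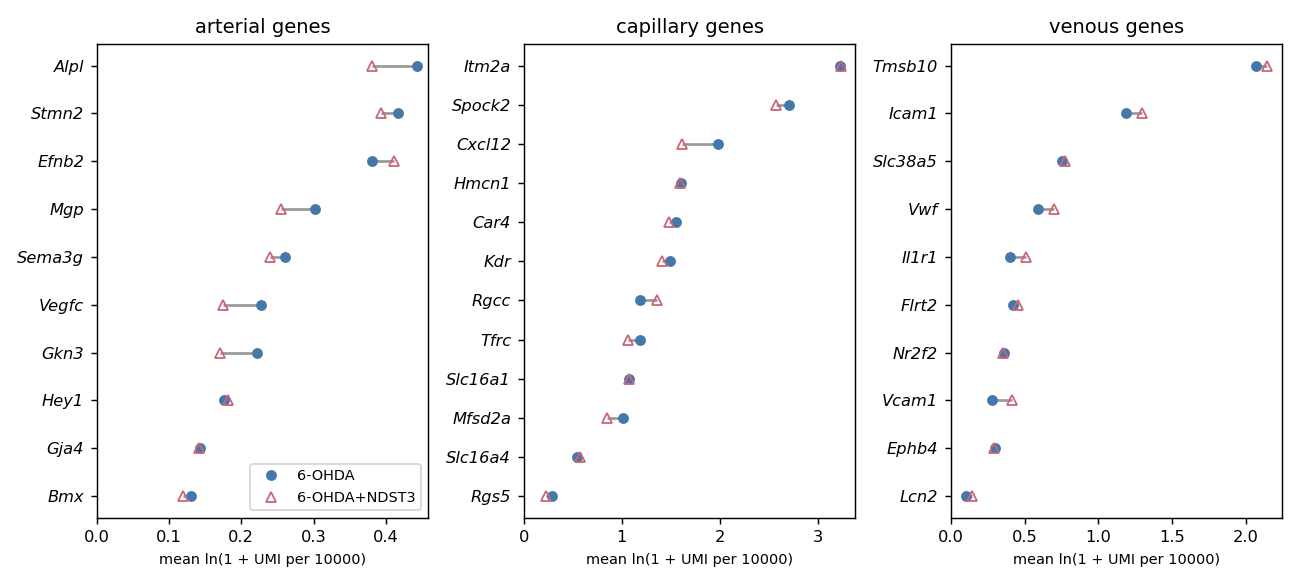
Level in cluster 7, in ln(1 + UMI per 10000), of the detected arterial, capillary and venous genes in the 6-OHDA library (filled circles) and the 6-OHDA+NDST3 library (open triangles), joined by a line for each gene, with a different scale in each panel. The triangles lie left of the circles for 8 of 10 arterial and 9 of 12 capillary genes and right of them for 8 of 10 venous genes. Of all detected genes 60.2% were higher and 39.8% lower in the 6-OHDA+NDST3 library.

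Of 17 leukocyte adhesion genes 12 were detected, with a median of 0.023. Apart from Vcam1, Icam1 and Pecam1 they differed by at most 0.046 in size, and the selectins Sele (0.03 and 0.04) and Selp (0.02 and 0.03) were not detected. Among chemokines and cytokine receptors, 11 of 16 detected genes were above 0, against 60.2% of all detected genes. The fractalkine gene Cx3cl1 had 0.23 and 0.32, and Cxcl2, a neutrophil chemokine, 0.29 and 0.21.

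All 16 MHC class I genes were higher with NDST3, against 60.2% of all detected genes, with a median of 0.066. Of these, 13 lay above the median of all genes. H2-T23 (0.77 and 0.97) and H2-K1 (1.75 and 1.94) had the highest differences, and the shared light chain B2m 2.05 and 2.07. In the other clusters the median of this list ranged from -0.0024 (cluster 1) to 0.26 (cluster 3). H2 class I genes are near-identical copies, so counts may be split among them. Interferon-stimulated genes, by contrast, had 15 of 28 detected members above 0 and a median of 0.01, with Irf7 highest (0.36 and 0.51) and Gbp7 lowest (0.83 and 0.77).

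Immediate early and stress genes divided by class. Of 29 detected, 22 were higher with NDST3, against 60.2% of all detected genes, with a median of 0.07. Fosb, Egr1 (1.32 and 1.56), Fos (2.03 and 2.23), Jund (2.53 and 2.72) and the phosphatase Dusp1 (1.93 and 2.11) led these. The chaperones Hspa1a, Hspa1b (1.47 and 1.28), Hsp90aa1 (2.04 and 1.89) and Hsph1 (0.48 and 0.35) were lower, while Dnajb1 had 0.80 and 0.82. The list's median was 0.057 in cluster 1 and 0.091 in cluster 9, and from -0.094 to 0.014 in the remaining 6. These genes also respond to tissue dissociation, and with 1 library per group the handling of a library and its group cannot be told apart.

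Of 17 death and survival genes 14 were detected and 12 were above 0, against 60.2% of all detected genes. Cdkn1a, Bcl2l1, which encodes Bcl-xL (0.67 and 0.89), and the death receptor Fas (0.31 and 0.45) led these. Elsewhere in this list Mdm2 had 0.37 and 0.38, Bax 0.55 and 0.54 and Bbc3 0.12 and 0.14. Proliferation genes were near 0, with Mki67 at 0.01 and 0.02 and Top2a at 0.009 and 0.015. Glycolysis and hypoxia genes had 15 of 17 detected members above 0, against the same 60.2%, with a median of 0.024. In this list Slc2a1 was highest and Eno1 (0.61 and 0.59) lowest. Mitochondrially encoded genes had a median of 0.033, from -0.12 (mt-Nd4l) to 0.071 (mt-Nd1).

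Coagulation and fibrinolysis genes had 6 of 9 detected members above 0, against 60.2% of all detected genes, and Plat, the tissue plasminogen activator, had 0.90 and 1.08. Of 12 detected vasoactive genes, the endothelial nitric oxide synthase Nos3 (0.84 and 0.86) and endothelin Edn1 (0.51 in both) had differences of 0.025 and 0.0006. Among 12 detected basement membrane genes Sparc had 3.31 and 3.20, and the collagen IV chain Col4a1 1.38 and 1.42. Lipid handling genes (10 of 15 detected, median -0.026) held opposite extremes in Paqr5 and Apoe. The iron handling genes had 8 of 9 detected members below 0, against 39.8% of all detected genes. Beside Tfrc the ferritin chain Fth1 had 3.36 and 3.29.

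The mouse Ndst3 gene was close to 0 in cluster 7 (0.04 and 0.03), where cluster 5 had 0.67. Of 17 genes for heparan sulfate synthesis and editing 7 were detected, 6 of them above 0, against 60.2% of all detected genes. Their median was 0.016. Extl3 (0.73 and 0.79) had the highest difference, and Ndst1, the sulfotransferase of the same family, had 0.23 and 0.24.

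Promoter regions with H3K27ac, an acetylation of active promoters, and open regions by ATAC-seq were measured in whole tissue, which does not separate endothelium from other cells. No region was listed for any of the 6 markers in either assay. H3K27ac regions were listed for 2 of the 20 leading genes. At Ptprg the signal 65 bases after the start was 22.1 in sham, 25.3 with 6-OHDA and 46.4 with 6-OHDA+NDST3, and at Egfl7, in a region at -419 relative to the start, 9.04, 11.9 and 14.9. Over all 11424 regions the medians were 14.9, 16.4 and 22.9. Of the 15 genes with the highest differences 4 had such regions. At Zbtb16 the region nearest the start had 8.22, 13.4 and 21.1, and at Net1 (0.66 and 0.89 in cluster 7) the 3 regions had 11.5, 20.9 and 35.6, then 2, 4 and 4.5, and 7.55, 7.45 and 15.4. Agmo had 40.7, 42 and 55.2, and Xdh 4.03, 6.95 and 8.44. Of the 15 genes with the lowest differences 3 had regions, with 6.97, 23.6 and 51 at Xist, 12.1, 6.95 and 19.9 at Apoe, and 3.02, 6.45 and 6.95 at Ctsd. The signal was thus higher with 6-OHDA+NDST3 than with 6-OHDA at genes that were higher and at genes that were lower in cluster 7, as was the median of all regions. ATAC regions were also listed for 2 of the 20 leading genes. Adgrf5 had 52.3, 42.2 and 41.1, and the 2 regions of Sptbn1 had 14.8, 15.5 and 12, and 13.3, 12 and 7, against medians of 16.9, 17.2 and 18.8 over 3582 regions. Each value is a single column per group, pooled over 2 libraries for H3K27ac.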

How the data were processed

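For scRNA-seq, brain tissue was dissociated, freed of myelin and red cells, and processed by the authors with Cell Ranger (mm10) and Seurat. They filtered cells on gene number, with an upper limit against multiplets, and mitochondrial share, clustered the merged libraries and deposited a mean per gene, cluster and library. The header calls these means counts, but the values are not whole and were taken as natural log values of counts normalized per cell by the authors. Ambient RNA correction and a doublet caller are not given in the sources used here, and no caller can be run on means. The 4 rows with repeated symbols were left out. CUT&RUN and ATAC signal per region was deposited by the authors, with a normalization not given in the sources used here, and its coordinates were not used because contig names point to another build than the submitters' notes. The processing notes also name bcl2fastq, Trim Galore and Bowtie. The authors' bulk RNA-seq was not used.

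Groups came from sample titles. A gene was detected above 0.1 in either library, and a difference of 0.25 ln units was the size rule. Genes named are the 6 markers, extremes of the 49 gene lists, the 20 leading genes, the 15 highest and lowest differences, and the 10 in each direction farthest from the median of the other clusters. Other members of the lists are named as examples. A few list members are not reported by name here. The cluster, lists and rules were chosen with earlier results of these data known. The motifs were chosen, and the promoters shown picked, after the values were seen. Counting was tested on simulated data. Python 3.11.15 with numpy 2.4.6, pandas 2.3.3 and matplotlib 3.10.9 was used. No precision can be given, since cells and depth behind a mean were not analysed here.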

Additional observations from a re-analysis of the deposited data

How the results depend on the processing

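No paired analysis was possible because each scRNA-seq group had 1 library and no test was made, so no library could be left out either. The counts of genes past the size rule depended on that rule. At 0.15 ln units 59 genes were higher and 26 lower, and at 0.5 these were 1 (Cd74) and 0. A log2 ratio of back-transformed means, with 0.1 added and an equal cut, gave 88 higher and 59 lower, since it weights low genes more. Floors of 0.05 and 0.25 and no floor left 7 and 9. These floors could not change the counts, because a difference of 0.25 needs a level of at least 0.25 in 1 library. Centring on the median difference gave 6 higher and 11 lower. The 244 genes highest in cluster 7 became 447 at a margin of 0.25 and 85 at 1. The count stayed within 1.5 times with either library alone and after centring. Leaving out cluster 5 or 2 could only raise it, and gave 306 and 275. All 24 marker and pan-endothelial genes were highest in cluster 7 with either library alone and after centring. Leaving out a cluster could not lower that number. Of 168 alternative values for named differences and list medians, 147 stayed on the same side of 0.25. No gene past the size rule changed sign, but none could, because a log2 ratio keeps the sign and centring subtracts only 0.0066. Most list medians lay near 0 and had little room to cross 0.25. Centring moved the medians of the Notch pathway, coagulation, basement membrane and fibroblast lists from at most 0.0059 to just below 0. The count of 147 used 0.25 for log2 ratios too, which is less strict than the equal log2 cut of 0.361. Against the equal cut Apoe (-0.325), Hspa1a (-0.345) and Fosb (0.347) fell short. The depth and cell number of the cluster limit every value and were not analysed here.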

Other observations

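Several gene lists that touch other functions of endothelium or other cells were also measured in cluster 7, again with 1 library per group and no test. Of 20 xenobiotic and redox enzymes 19 were detected and 11 had a difference above 0, against 60.2% of all detected genes. Their median was 0.012. Txnip, a regulator of thioredoxin and glucose uptake, had 0.78 and 0.91, the glutathione transferase Gstm1 0.73 and 0.83, and Prdx5, a peroxiredoxin, 0.45 and 0.40. Of 12 tip cell and angiogenesis genes 5 were detected, with a median of 0.011, from the apelin receptor Aplnr (0.21 and 0.14) to Plaur (0.43 and 0.49). Only 5 of 18 cell cycle genes were detected, and all 5 were above 0, against 60.2% of all detected genes. The tubulin regulator Stmn1 (1.30 and 1.45) led these, while the mitotic genes of the list were near 0.

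Among the remaining lists of other cell types, the 8 neutrophil markers summed to 0.13 and 0.10 and the 5 platelet genes to 0.09 and 0.08 in cluster 7. The 10 fibroblast markers summed to 0.60 and 0.61, of which Mgp (0.30 and 0.25), which arterial cells also express, and Apod (0.24 and 0.30) were detected. The monocyte and macrophage markers summed to 1.05 and 0.69, mostly Lyz2, and the choroid plexus and ependymal markers to 0.73 and 0.45, mostly Ttr and Enpp2 (0.35 and 0.32). Arid5b, which stood far below the other clusters in the ranking of differences, had 1.01 in both libraries of cluster 7 and differences of 0.051 to 0.35 elsewhere.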
